A study of Bombyx mori with 6 samples.

Results

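Hsp90 and the small heat shock genes of the silkworm Bombyx mori were followed in RNA sequencing libraries of larval testis. The members were chosen by gene symbol: Hsp90 and 7 small heat shock genes. Of these 8 symbols, 7 were matched to a row of the count table of 15884 genes, namely Hsp90 (gene 692420), Hsp19.9 (692533), Hsp20.1 (692487), Hsp20.4 (692591), Hsp20.8 (778499), Hsp21.4 (692534) and Hsp23.7 (692488). Hsp25.4 was not analysed here. All 7 matched genes passed the filter on low counts, which kept 12029 genes.

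Testes were taken from larvae on day 5 of the fifth instar. The WT group was strain 898WB, labelled wild type, and the GMS group was a genetic male sterile line, labelled as mutant type, with 3 libraries each. The series title calls 898WB the wild type of this line, and the design text calls the replicates biological. The labels used here give neither the locus and allele behind the sterility nor whether a library came from 1 animal or a pool, so effects of the sterility and of other strain differences cannot be told apart, and a p-value reflects the variation among these 6 libraries. In whole testis, fewer cells of a type and less RNA per cell cannot be told apart either.

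Hsp90 is an ATP-driven chaperone of the cytosol that completes the folding of kinases, receptors and other client proteins, helped by Hsp70, J proteins and co-chaperones. Small heat shock proteins hold unfolding proteins without ATP through a conserved alpha-crystallin domain, and the numbers in their names refer to their mass. Heat shock factor switches on many of these genes under stress, but several are also made in unstressed tissue. In Drosophila, Hsp90 is needed for male fertility.

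The depth of the libraries was 19627477 to 28358501 counted reads. WT replicate 3 stood apart, with correlations of 0.985 and 0.982 across genes with the other WT libraries, where those 2 libraries correlated at 0.995. Among germ cell genes, the testis beta-tubulin gene Tub4 and the testis-specific kinase gene TSSK were abundant in both strains, and 0 of the 6 matched markers were without reads. Of these 6 genes 3 rose and 2 fell, and their summed level ran from 32294 to 36937 CPM in WT and from 26568 to 27251 CPM in GMS. Tub4 made up most of this sum, with means of 32823 and 24830 CPM, while the median log2 change of the 6 genes was 0.18. Markers of fat body and haemolymph were lower in GMS, 7 of 7, with a sum of 385 to 511 CPM in WT and 200 to 214 CPM in GMS. Of 4 tested haemocyte genes 2 rose and 2 fell, and the sum over the 5 matched was 89.0 to 109 CPM in WT and 121 to 135 CPM in GMS. Of 75 tested cuticular genes 27 rose and 22 fell. The sum over all 206 matched was 1283 to 1511 CPM in WT and 1502 to 1578 CPM in GMS, and 34 of the 206 had no reads. Of all 12029 tested genes, 17.6% were called higher in GMS and 18.6% lower, by the test described below. The part of these markers in the results below was not tested.

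Hsp90 and the small heat shock genes did not move as one. Hsp90, Hsp23.7, Hsp20.1 and Hsp20.8 were lower in GMS, Hsp19.9 was higher, and Hsp20.4 and Hsp21.4 did not pass the test. This made 5 of 7 genes called, against a background of 36.2% of all 12029 tested genes. A gene was called where its p from the quasi-likelihood test of edgeR, adjusted by Benjamini and Hochberg's method over all tested genes, was under 0.05. Lower calls were 4 of 7, where 18.6% of all genes were lower, and the 1 higher call stood beside 17.6%. With a change of at least 1.5-fold also required, 4 of 7 were called (17.9% of all genes), 3 of them lower (9.08%). The median log2 change was -0.36 over the 7 genes and 0.05 over all tested genes. The strains did not overlap in normalised read count for 5 of the 7, beside 51.0% of all genes, and 4 of these lay lower in GMS, beside 24.8%. Without WT replicate 3, 1 was called higher and 6 lower, but there 29.0% of all genes were called higher and 29.0% lower. In that fit 3 of the 7 were called at 1.5-fold or more (23.9% of all genes), all of them lower (10.5%), and Hsp19.9, at 0.57 on the log2 scale, was below that fold.

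**Figure D1:**
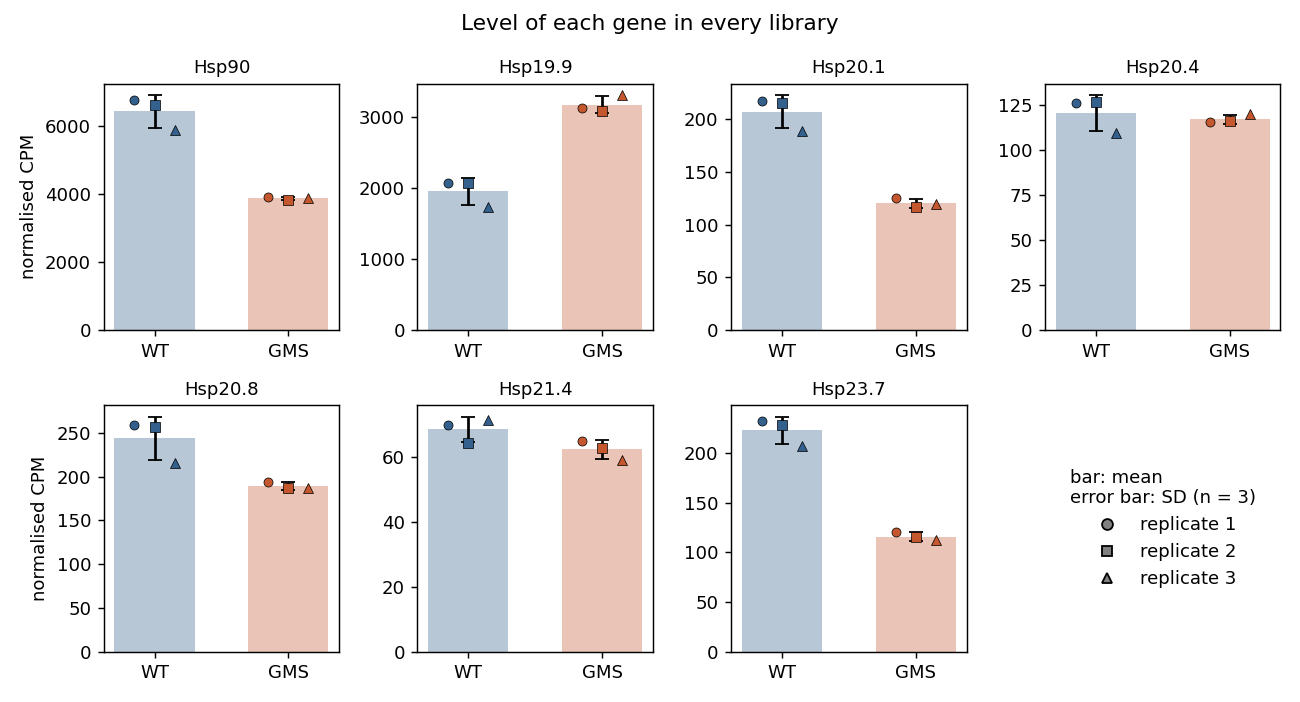
Normalised read count (CPM, linear axes from 0) of each gene in the WT and GMS libraries, with points for the 3 replicates, bars for the mean and error bars for the SD. The GMS points lie below all WT points for Hsp90, Hsp20.1, Hsp20.8 and Hsp23.7, and above them for Hsp19.9. For Hsp20.4 and Hsp21.4 the ranges of the strains overlap.

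Hsp90 was among the genes with the most reads in the testis. Its normalised level, as CPM, the read count relative to the library total scaled by its TMM factor,, was 6761, 6616 and 5877 in the 3 WT libraries and 3898, 3824 and 3868 in GMS. The lowest WT library, replicate 3, was still far above every GMS library. The mean went from 6418 ± 474 to 3864 ± 37.3 CPM (SD, n = 3), 1.66-fold lower in GMS, with a log2 change of -0.73 (95% interval -0.87 to -0.60; edgeR adjusted p = 7.53e-05). By this level Hsp90 ranked 7 among all genes in WT and 12 in GMS, and it took 0.619% and 0.400% of all counted reads. Replicates in GMS were close, with a coefficient of variation of 0.964%, beside 7.39% in WT.

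Hsp19.9 was the member that rose. Its level was 2059, 2063 and 1731 CPM in WT and 3119, 3072 and 3299 CPM in GMS. Every GMS library was higher than every WT library. The mean rose from 1951 ± 190 to 3163 ± 120 CPM (SD, n = 3), 1.62-fold, with a log2 change of 0.70 (95% interval 0.52 to 0.87; edgeR adjusted p = 0.000352). Its rank by CPM went from 46 in WT to 15 in GMS.

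Hsp23.7 and Hsp20.1 both fell. Hsp23.7 stood at 232, 229 and 208 CPM in WT and at 121, 115 and 112 CPM in GMS. The groups were well apart, and the fall was the largest of the 7 genes, 1.92-fold, with a log2 change of -0.94 (95% interval -1.08 to -0.80; edgeR adjusted p = 2.90e-05). Hsp20.1 stood at 217, 215 and 189 CPM in WT and at 125, 117 and 119 CPM in GMS. It was 1.72-fold lower, with a log2 change of -0.78 (95% interval -0.94 to -0.63; edgeR adjusted p = 0.000119).

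Hsp20.8 fell less. Its level was 259, 257 and 216 CPM in WT and 194, 187 and 187 CPM in GMS. WT replicate 3 lay nearer to the GMS libraries than to the other WT libraries, but did not overlap them. The fold was 1.29, lower in GMS, with a log2 change of -0.36 (95% interval -0.54 to -0.19; edgeR adjusted p = 0.00840), and -0.49 without WT replicate 3.

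Hsp20.4 and Hsp21.4 overlapped between the strains. Hsp20.4 stood at 126, 127 and 109 CPM in WT and at 115, 116 and 120 CPM in GMS, so that WT replicate 3 was below all GMS libraries and the other WT libraries above them. Its log2 change was -0.04 (95% interval -0.20 to 0.12; edgeR adjusted p = 0.650), and it turned to 0.06 when library totals alone were used for scaling. Without WT replicate 3 it was -0.16 (edgeR adjusted p = 0.00692). Hsp21.4 stood at 69.9, 64.2 and 71.5 CPM in WT and at 65.1, 62.8 and 59.2 CPM in GMS. Its log2 change was -0.14 (95% interval -0.29 to 0.02; edgeR adjusted p = 0.152), and -0.16 without WT replicate 3 (edgeR adjusted p = 0.0356). These intervals leave room for small differences in either gene.

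**Figure D2:**
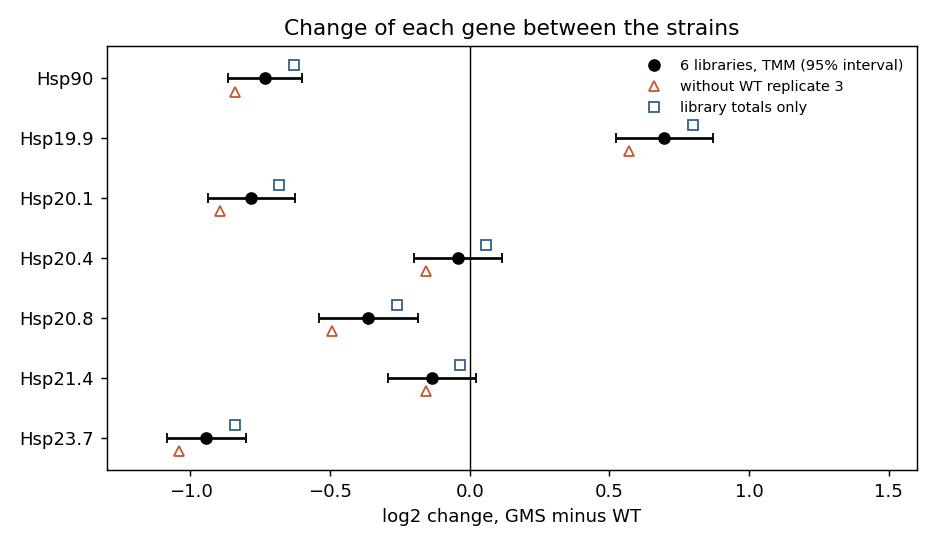
Log2 change (GMS minus WT) of each gene, with black points and 95% intervals from all 6 libraries, triangles without WT replicate 3 and squares with library totals only. Hsp19.9 lies to the right of 0 and Hsp90, Hsp20.1, Hsp20.8 and Hsp23.7 to the left of 0 in all 3 settings, while Hsp20.4 crosses 0.

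The scaling shifted all genes together. With library totals only, the median log2 change over all tested genes was 0.15 in place of 0.05, and the changes of Hsp90 and Hsp19.9 became -0.63 and 0.80. WT replicate 3 differed from the mean of the other WT libraries by -0.26 to 0.09 on the log2 scale for the 7 genes (median -0.19), where the median of all tested genes was 0.00. Over all tested genes the 5th to 95th percentile range was -0.48 to 0.84, so the 7 genes lay within it. WT replicate 3 was the lowest WT library for 6 of the 7 genes, all but Hsp21.4. The smallest count of any of these 7 genes was 1322 reads, for Hsp21.4 in GMS replicate 1, which has an exact 95% Poisson interval of 1252 to 1395, for counting error only.

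Levels of different genes were compared per length, with the deposited RPKM values. How the counting assigned reads that match several related genes is not known here. That limits such comparisons among the small heat shock genes, and also the reading of each one's change between the strains. The lengths behind these values were 702 bases for Hsp19.9, 732 to 756 bases for Hsp20.1, Hsp20.4, Hsp20.8 and Hsp23.7, 1336 for Hsp21.4 and 2554 for Hsp90. In WT the order was Hsp19.9 (1120 ± 129 RPKM), Hsp90 (1012 ± 93.1), Hsp20.8 (131 ± 15.4), Hsp23.7 (119 ± 9.35), Hsp20.1 (114 ± 10.6), Hsp20.4 (64.3 ± 6.39) and Hsp21.4 (20.6 ± 0.929; SD, n = 3). The ranges over the libraries overlapped there for Hsp19.9 and Hsp90, for Hsp20.8 and Hsp23.7, and for Hsp23.7 and Hsp20.1. Within each single WT library, however, these genes stood in the order given. In GMS Hsp19.9 was again first, and its range was apart from that of Hsp90. It had 1889 ± 87.1 RPKM against 642, 620 and 639 RPKM for Hsp90 in the 3 libraries. Below them came Hsp20.8 (106 ± 2.99 RPKM), then Hsp20.1 (68.9 ± 2.90), Hsp20.4 (64.9 ± 1.81) and Hsp23.7 (64.6 ± 2.50), whose ranges overlapped in that order, and Hsp21.4 (19.6 ± 0.900). Hsp20.1 was above Hsp20.4 in each GMS library, while the order of Hsp20.4 and Hsp23.7 differed between libraries. Ranked per length among all genes, Hsp19.9 went from 14 in WT to 6 in GMS, and Hsp90 from 16 to 22.

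Hsp19.9 made up most of the summed RPKM of the 6 matched small heat shock genes, and more of it in GMS. Any small heat shock gene outside these 6, such as Hsp25.4, is not in the sum. The share of Hsp19.9 was 71.5%, 71.8% and 70.7% in the WT libraries and 84.9%, 85.2% and 86.0% in GMS. The shares did not overlap and varied little within a strain, WT replicate 3 included. Hsp23.7 went from 7.62% ± 0.258 to 2.92% ± 0.174 of the sum, Hsp20.1 from 7.28% ± 0.126 to 3.12% ± 0.145 and Hsp20.8 from 8.33% ± 0.0822 to 4.78% ± 0.196 (SD, n = 3). The sum itself was 1669, 1666 and 1372 RPKM in WT and 2203, 2128 and 2306 RPKM in GMS. Without Hsp19.9, the sum of the other 5 went the other way, from 475, 470 and 401 RPKM in WT to 333, 316 and 323 RPKM in GMS. These sums are descriptions and were not tested.

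**Figure D3:**
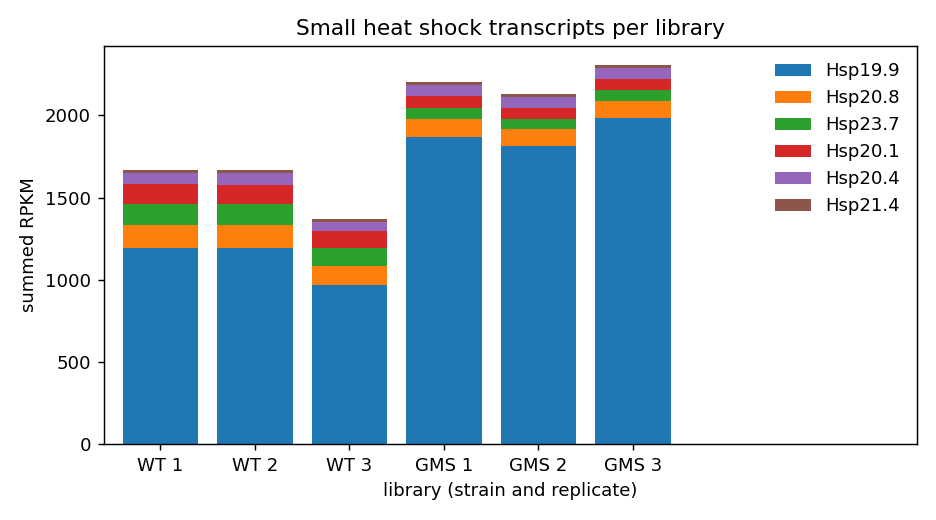
Summed RPKM of the 6 small heat shock genes in each library (linear axis from 0), stacked by gene. Hsp19.9 fills 70.7% to 71.8% of the WT bars and 84.9% to 86.0% of the GMS bars, and the GMS bars are taller although the stack above Hsp19.9 is thinner.

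By their order on the RefSeq assembly ASM3026992v2, used here only for which genes are neighbours, 6 of the 7 genes lay on chromosome 27 and Hsp21.4 on chromosome 13. Hsp19.9, Hsp20.8 and Hsp20.4 followed one another among the tested genes, and Hsp23.7 was next to Hsp20.1. Hsp90 lay between these groups, next to an Hsp70 gene (LOC733093, older symbol BmHsp70), with 36 tested genes between Hsp20.4 and Hsp90. On this chromosome 53 of 138 tested genes were called, or 38.4%, 31 of them lower.

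Neighbours did not share a direction in the first of these groups. Hsp19.9 rose while Hsp20.8, next to it, fell, and Hsp20.4, beyond Hsp20.8, did not pass. The ratio of Hsp19.9 to Hsp20.8 in RPKM was 8.52, 8.58 and 8.59 in the WT libraries and 17.2, 17.6 and 18.8 in GMS. Hsp20.4 over Hsp20.8 went from 0.492 ± 0.0102 to 0.614 ± 0.0231 (SD, n = 3). In the pair of Hsp20.1 and Hsp23.7 both fell, and their ratio was 0.960, 0.967 and 0.937 in WT and 1.07, 1.04 and 1.09 in GMS. These ratios were chosen after the values were seen and were not tested.

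Among the genes flanking the members, LOC101745417, before Hsp19.9, and LOC101736650, after Hsp20.4, had log2 changes of -0.19 (edgeR adjusted p = 0.0833) and 0.02 (edgeR adjusted p = 0.924). LOC101746939, before Hsp23.7, rose by 0.68, opposite to Hsp23.7, and LOC101746800, after Hsp20.1, had a log2 change of -0.05 (edgeR adjusted p = 0.752). Larger changes lay farther out. LOC101735964, LOC110384696 and LOC101736886, at 4, 5 and 6 places before Hsp23.7, rose by 4.67, 8.98 and 2.25. At 4, 5 and 6 places after it, LOC101744198, LOC101746660 and LOC101744030 had log2 changes of -0.77, -0.75 and 0.07. These farther genes were named after their values were seen. LOC101741209, before Hsp90, fell by 0.89 from a low level of 1.44 ± 0.294 CPM (SD, n = 3). On the other side of Hsp90, LOC733093 had a log2 change of -0.07 (edgeR adjusted p = 0.571), and Hsp70, at the third place after Hsp90, one of -0.03 (edgeR adjusted p = 0.807). Both genes flanking Hsp21.4, LOC101741305 and LOC101741162, did not pass.

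**Figure D4:**
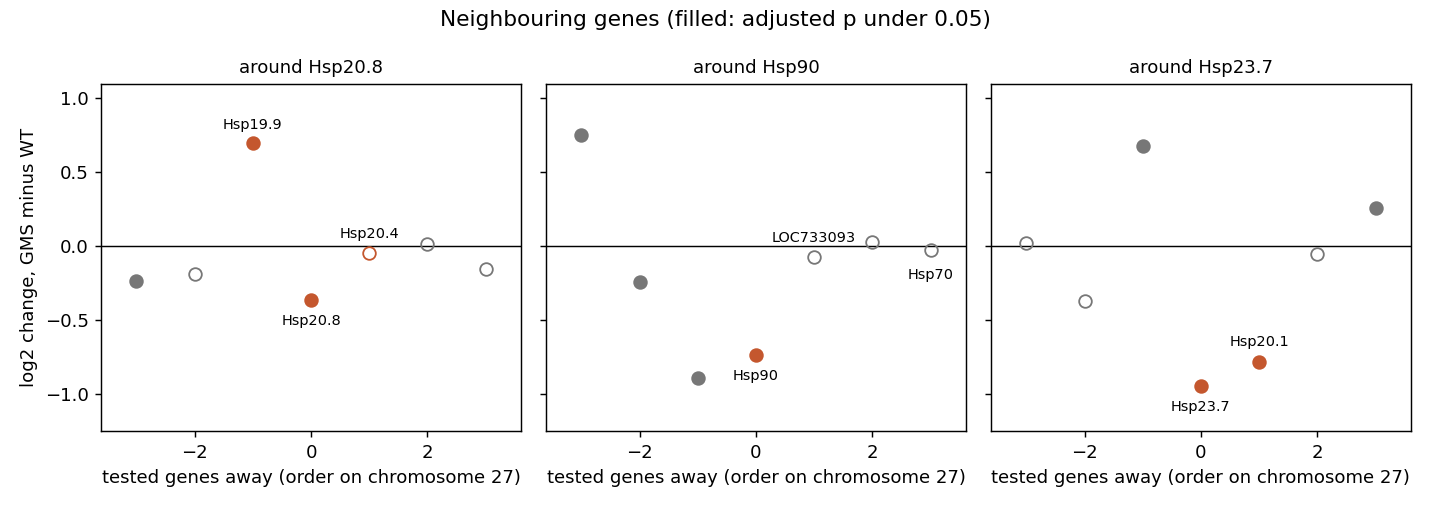
Log2 change (GMS minus WT) of the tested genes up to 3 places from Hsp20.8, Hsp90 and Hsp23.7, in their order on chromosome 27, with Hsp90 and the small heat shock genes in orange and filled points for adjusted p under 0.05. Hsp19.9 (0.70) and Hsp20.8 (-0.36) point in opposite directions, and Hsp23.7 (-0.94) and Hsp20.1 (-0.78) in the same one.

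Other chaperone genes give the setting in which Hsp90 and the small heat shock genes work. Of 34 such genes, chosen by symbol and all tested, 4 rose, 8 fell and 22 did not pass, so that 12 were called, a share of 35.3% beside 36.2% of all genes. Their median log2 change was -0.02, and it turned to 0.08 with library totals only, where 8 rose and 6 fell and, of all 12029 genes, 3264 rose and 1695 fell, beside 2115 and 2242 with TMM factors. Without WT replicate 3, 8 rose and 13 fell, where 29.0% of all genes were called in each direction.

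Cytosolic members of the Hsp70 class hand clients to Hsp90. Hsc70-4, the constitutive cytosolic member and the first of these 34 genes by CPM, had 3311, 3415 and 2913 CPM in WT and 2907, 2868 and 3026 CPM in GMS, so the strains overlapped (log2 change -0.13, edgeR adjusted p = 0.144; -0.25 without WT replicate 3, where it was called). The ratio of Hsp90 to Hsc70-4 in RPKM, also chosen after the values were seen, was 1.70, 1.61 and 1.68 in WT and 1.12, 1.11 and 1.06 in GMS. The gene listed as HSP70 with the older symbol grp78, the Hsp70 of the endoplasmic reticulum, fell from 828, 831 and 739 CPM to 502, 516 and 505 CPM (log2 change -0.66, edgeR adjusted p = 0.000113). It was the only one of the 4 members of this class called over all 6 libraries, where 36.2% of all genes were called. Without WT replicate 3 there were 3, all lower, where 29.0% of all genes were called lower. Family members resemble one another, and, as for the small heat shock genes, how the counting assigned reads that match several of them is not known here.

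Of 6 genes for Hsp90 partners and FKBP proteins 1 rose and 1 fell, a called share of 33.3% beside 36.2% of all genes. Cdc37, which brings kinases to Hsp90, had a log2 change of 0.06 (edgeR adjusted p = 0.352) and Ahsa1, which speeds its ATPase, one of 0.05 (edgeR adjusted p = 0.533). Hop, which links Hsp70 to Hsp90, rose by 0.15, from 161 ± 3.51 to 178 ± 3.40 CPM (SD, n = 3; edgeR adjusted p = 0.0391), but this call was lost whichever library was left out (edgeR adjusted p from 0.0610 to 0.146). Fkbp13, a prolyl isomerase, fell by 0.71 on the log2 scale, from 101 ± 5.25 to 62.1 ± 1.02 CPM. The heat shock factor gene HSFd stood at 47.6, 46.2 and 63.2 CPM in WT and at 60.5, 68.3 and 66.4 CPM in GMS, with WT replicate 3 in the range of GMS (log2 change 0.32, edgeR adjusted p = 0.0872). Without that library HSFd was called, with a log2 change of 0.43.

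J proteins, which drive the ATPase of Hsp70, went both ways. Of 20 genes 3 rose and 4 fell, a called share of 35% beside 36.2% of all genes. DnaJ-12 rose from 35.4 ± 4.88 to 56.1 ± 2.06 CPM and DnaJ-5 from 262 ± 7.67 to 328 ± 4.59 CPM, while DnaJ-3 fell from 99.6 ± 3.81 to 71.1 ± 1.04 CPM (SD, n = 3). DnaJ-21 fell by 0.38 on the log2 scale. The remaining calls were mostly lost with a library left out. DnaJ-7, higher by 0.53, was called in 1 of 6 such fits. DnaJ-11 and DnaJ-17, lower by 0.26 and 0.23, were called in 2 of 6 each. Fewer of all genes were called there too, except without WT replicate 3. The other such fits called 2999 of 12239 to 3468 of 12164 genes, beside 4357 of 12029 with all libraries. The first J protein gene by CPM in WT, DnaJ-4, did not pass (log2 change 0.06, edgeR adjusted p = 0.555). A further 6 genes matched only by an older symbol, 5 J proteins and LOC733093, gave 0 rises and 1 fall, LOC101737435 (DnaJ-20), by 0.46. Their called share was 16.7% beside 36.2% of all genes.

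Of 3 folding genes of the endoplasmic reticulum 2 fell, where 18.6% of all genes were lower. The calreticulin gene Crt went from 998 ± 68.5 to 802 ± 7.27 CPM and the disulfide isomerase gene ERp57 from 393 ± 32.4 to 317 ± 5.12 CPM (SD, n = 3), by 0.31 on the log2 scale each. The call of ERp57 was lost in 2 of 16 alternatives. Pdi had a log2 change of -0.14 (edgeR adjusted p = 0.0530).

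**Figure D5:**
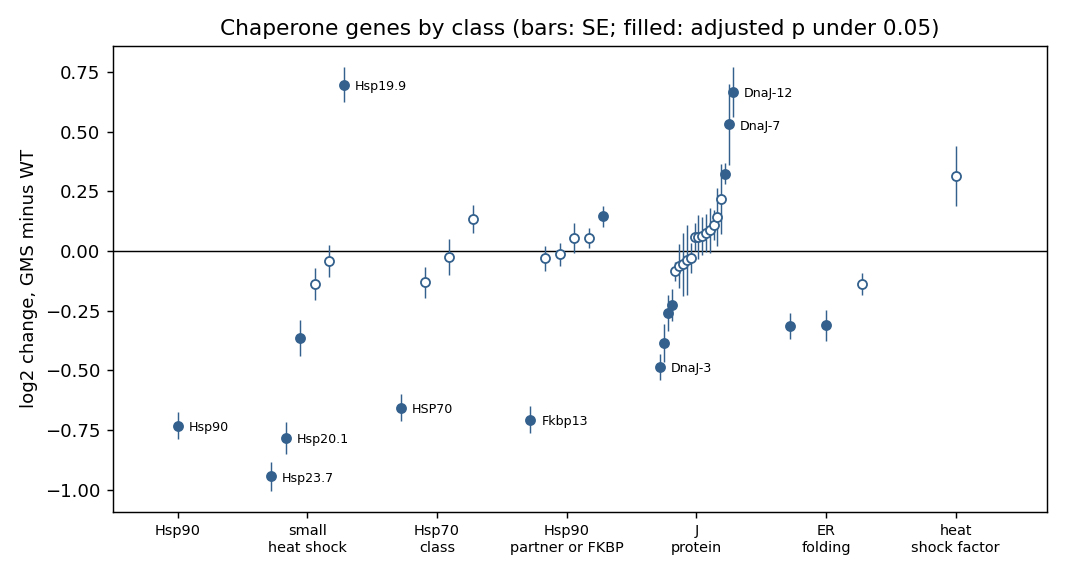
Log2 change (GMS minus WT) of Hsp90, the small heat shock genes and 34 other chaperone genes by class, with bars for the standard error and filled points for adjusted p under 0.05. Hsp23.7, Hsp20.1, Hsp90, Fkbp13 and HSP70 lie lowest, Hsp19.9 and DnaJ-12 highest, and most J proteins near 0.

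The genes most like Hsp90 across the 6 libraries, by Pearson correlation of log2 CPM over genes averaging 10 CPM or more, were LOC692889, LOC101742399, LOC101745935, LOC101741242 and LOC101739225, with r of 0.999 each and log2 changes from -0.93 to -0.34. The libraries form 2 groups by strain, and each library's scaling is common to all its genes. Among 7846 genes compared, 864 had r above 0.95. For the summed CPM of the 6 small heat shock genes, which follows Hsp19.9, the 5 nearest were LOC101745524, LOC101736458, LOC101735682, LOC101736434 and VATPc, with r of 0.996 to 0.999. Their log2 changes ran from 0.09 to 0.63. LOC101736434 and VATPc did not pass (edgeR adjusted p = 0.0552 and 0.104). Here 352 of 7841 genes compared had r above 0.95.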

How the data were processed

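Per the labels' protocols, TRIzol was used to extract RNA from testes and a TruSeq RNA kit to prepare libraries. That kit does not mark strand, so reads of overlapping antisense genes were not separated. HISAT2 2.1.0 and featureCounts 1.6.2 are named in the submitters' processing notes. The genome build, the annotation and the handling of reads with several matches are not stated there. The authors deposited raw read counts per gene. They also deposited RPKM, whose scaling implies 48248888 to 68701498 reads a library, and the count table held 40.1% to 42.5% of that number.

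Symbols came from the RefSeq gene table of ASM3026992v2, which named 13030 of 15884 rows. Counts went into edgeR 4.0.16 (R 4.3.3), with TMM factors, filterByExpr, group as the only term and the quasi-likelihood F test, at an adjusted p under 0.05. Standard errors were taken from the F statistic. Alternatives used limma 3.58.1 and DESeq2 1.42.0, other factors, filters and pseudocounts (1 and 0.1), a replicate block, and each library left out. The test was tested on simulated data.

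Members and lists were chosen with earlier results of these data known. Named chaperone genes are the called ones, up to 12 by smallest p, and the most abundant of each class, and any others were named after their values were seen. A floor of 3 counts was 0.103 to 0.148 CPM. No muscle marker was matched by symbol. The summed level planned for 7 small heat shock genes covers the 6 that were matched.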

Additional observations from a re-analysis of the deposited data

How the results depend on the processing

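Hsp90, Hsp19.9, Hsp20.1, Hsp20.8 and Hsp23.7 kept direction and call in all 16 alternative fits, with log2 changes of -0.84 to -0.63, 0.57 to 0.80, -0.89 to -0.68, -0.49 to -0.26 and -1.04 to -0.84. With a minimum of 1.5-fold Hsp20.8 (-0.36) was no longer called, leaving 4 of the 7 genes (17.9% of all genes) and 3 of the 34 other chaperone genes. Hsp20.4 turned to 0.0594 with library totals only, to 0.0189 with log2(RPKM + 1), with or without a filter at a mean RPKM of 1, and to 0.0192 with log2(RPKM + 0.1), where RPKM keeps no TMM factor. Leaving out 1 library gave -0.16 to -0.00683 for Hsp20.4 and -0.18 to -0.10 for Hsp21.4, called only without WT replicate 3 (at -0.16 and -0.16). It also gave 5 to 7 of the 7 genes and 8 to 21 of the 34 chaperone genes. Of all tested genes it gave 2999 of 12239 to 7104 of 12250. The upper ends came without WT replicate 3, where 57.99% of all genes and 61.8% of the 34 were called. The cause of these upper ends was not tested. Cdc37 turned to -0.00373 with upper-quartile factors. The summed small heat shock level, GMS minus WT, was 0.42 on the log2 scale of CPM, 0.50 in RPKM and 0.35 to 0.46 with 1 library left out.

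The labels do not state that same-numbered libraries share an animal or day, so the numbers are not taken as pairs. Deviations from the strain mean correlated at r of 0.05, -0.17 and -0.17 for same-numbered libraries. For differently numbered ones r ran from -0.13 to 0.20. With 3 libraries per strain these deviations are tied to one another, so they cannot decide on pairing. With a replicate block 5 of the 7 genes and 8 of the 34 were called, and 3151 of all 12029 tested genes, while no member changed its call. With 3 libraries per strain, small changes such as those of Hsp20.4 and Hsp21.4 are hard to settle. The coefficients of variation in WT and GMS were 8.12% and 2.09% for Hsp20.4 and 5.56% and 4.75% for Hsp21.4. Whether replicate spread or read depth limits these genes more was not tested.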
